A study of Sus scrofa with 6 samples.

Results

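The genes described here carry glucose through glycolysis to lactate, or sense and answer a lack of oxygen. A list of 38 genes was given by name, 23 for glycolysis and 15 for the hypoxia response, and both sets are described separately. Of these, 29 were found by the symbol of their gene ID and 7 by the protein name in the deposited annotation, so 36 of 38 genes are described, over 38 of the 19670 gene models of the series. ALDOA and BNIP3 are not analysed here. LDHB is spread over 3 models, of which ENSSSCG00000029405 held 1 read in GW0742 replicate 3, none in the other 5 libraries, and was not tested.

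RNA was sequenced from primary cells that enzymatic digestion released from external ear (auricular) cartilage. Treated cells spent 24 h in GW0742, which activates PPARD, a lipid-sensing nuclear receptor, and control cells spent 24 h in the solvent DMSO, with 3 libraries per group. Cells of both groups came from the same hybrid pig, 4 months old, bred as Duroc × (Landrace × Large White) and carrying wild-type PPARD. No label states whether a library had a culture of its own, and a p-value therefore reflects the scatter of libraries alone, possibly a technical one. The series is titled for PPARD as an inhibitor of ear cartilage growth.

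Glycolysis turns glucose into pyruvate in the cytosol. Transporters of the SLC2A family let glucose in, hexokinases trap it as a phosphate, phosphofructokinase is the main control point, and lactate dehydrogenase with the monocarboxylate transporters disposes of pyruvate as lactate. Cartilage has no blood vessels, and chondrocytes draw much of their energy from glycolysis under low oxygen. When oxygen is low the HIF alpha proteins escape hydroxylation by the EGLN enzymes and destruction through VHL, and they switch on many glycolytic genes together with targets such as VEGFA and CA9.

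The libraries held between 13133980 and 16913745 estimated reads, and 14146 models were deep enough to test. Changes of 1 gene are given in CPM, its reads scaled to library size by the trimmed mean of M-values (TMM), and levels of different genes are compared by the RPKM values of the authors, which allow for length. ANGPTL4, a known PPARD target, rose with the agonist and stood at 199.9, 176 and 185 CPM in GW0742 libraries and at 16.0, 26.5 and 21.5 CPM in DMSO libraries (edgeR adjusted p = 0.000193). PPARD itself averaged 55.7 ± 2.5 CPM with GW0742 and 51.5 ± 3.8 CPM with DMSO (SD, n = 3 each). All 10 chondrocyte markers were found but at uneven levels, with COL2A1 at 108 and 114 RPKM and ACAN at 75.7 and 105 RPKM on average with GW0742 and DMSO, while the fibroblast-type genes VIM and COL1A2 were far higher, VIM at 6921 and 6843 RPKM. Other cartilage markers were at or near 0, with MATN1 at 0.07 and 0.07 RPKM, CNMD at 0.13 RPKM and 0, and COL9A1 at 0.38 and 0.58 RPKM on average with GW0742 and DMSO. The endothelial list had 7 of 9 markers named, none at 0 throughout, and summed to between 103.5 and 130.3 RPKM in GW0742 libraries against 64.1 to 96.6 RPKM in DMSO libraries. Most of that sum was CLDN5, at 94.0 and 68.7 RPKM on average with GW0742 and DMSO, though all 6 tested endothelial models had a log2 value above 0. The chondrocyte list summed to between 356 and 374 RPKM with GW0742 against 414 to 431 RPKM with DMSO, and the muscle list to between 4105 and 5105 RPKM with GW0742 against 5205 to 5581 RPKM with DMSO. Most of the muscle sum was ACTA2 and TAGLN, at 1723 and 2618 RPKM on average with GW0742. Of 5 tested muscle models 4 had a log2 value below 0 and 1, MYH11, above (0.09). The fibroblast list (14122 to 14989 RPKM with GW0742 against 15002 to 15471 RPKM with DMSO) and the leukocyte list (14.6 to 15.2 RPKM with GW0742 against 12.3 to 14.4 RPKM with DMSO) did not overlap either. Most of the leukocyte sum was CD14, at 11.6 and 10.7 RPKM on average with GW0742 and DMSO. All 3 tested leukocyte models had a log2 value above 0, but the groups overlapped in each. The part of these shifts in the results that follow was not tested, and in bulk RNA fewer cells of a type cannot be told apart from less RNA per cell.

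No member of either set passed the test over all genes. Among 37 tested models 0 had an adjusted p under 0.05 in edgeR's quasi-likelihood test, where 0.262% of all tested models were called, 0.184% higher and 0.0778% lower. In the glycolysis set, 6 of 23 tested models were higher and 1 lower at an unadjusted p under 0.05, against 7.93% and 8.91% of all tested models (16.8% in either direction). DESeq2 called 2 of the 23 higher and 1 lower (1.46% and 1.65% of all tested models, 3.12% in either direction). The groups did not overlap in 9 of the 23 models (39.1%), with GW0742 above DMSO in 8 and below in 1, while over all tested models 11.4% had GW0742 above and 12.1% below. In the hypoxia set, 2 of 14 models were higher and 0 lower at an unadjusted p under 0.05, DESeq2 called 1 higher and 0 lower, and the groups were apart in 3 of 14 (21.4%), near the 23.4% of all tested models. The median log2 fold change was 0.10 over the glycolysis set and 0.03 over the hypoxia set, against 0.00 over all tested models.

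**Figure D1:**
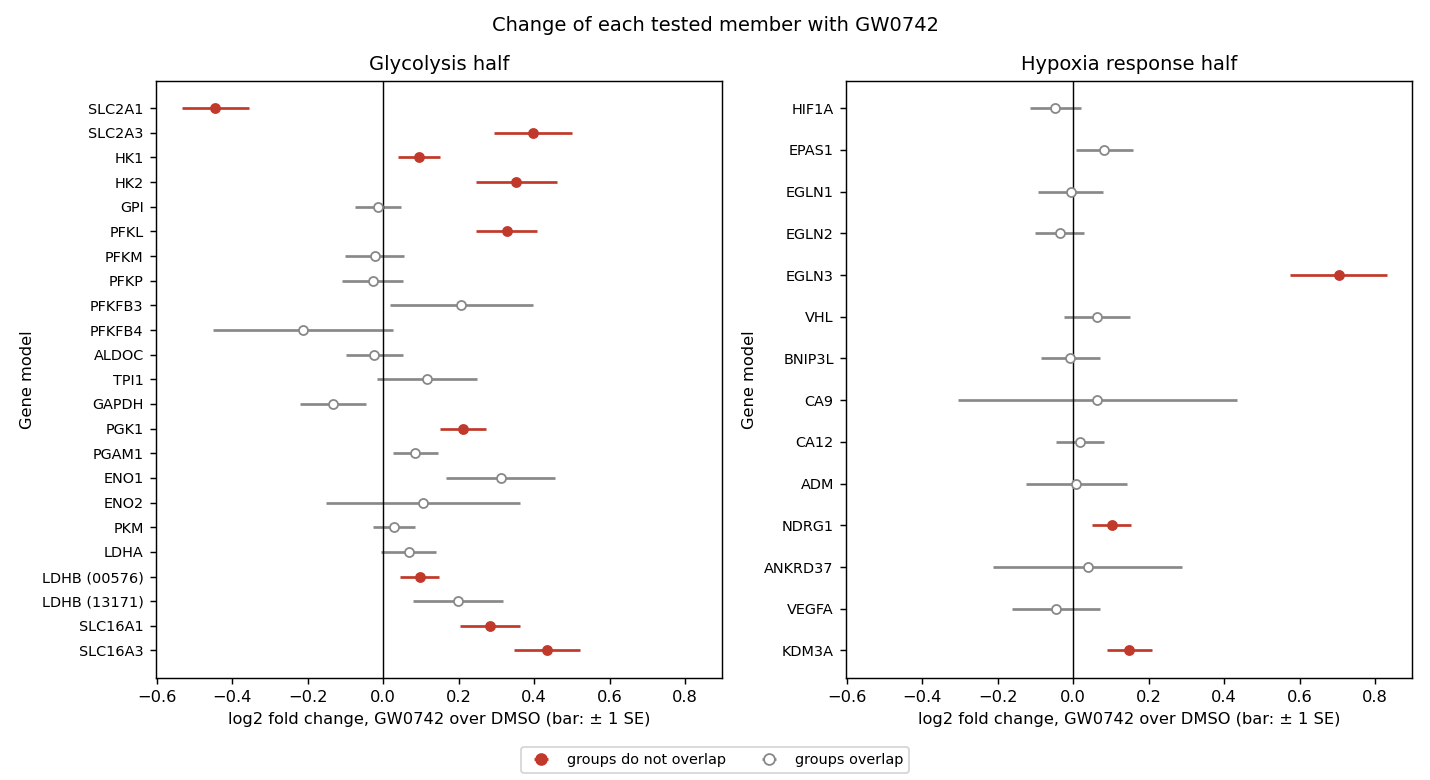
Log2 fold change, GW0742 over DMSO, for the 23 tested glycolysis models and the 14 tested hypoxia models (points, with bars of 1 SE from edgeR). Filled red points are models whose groups do not overlap. SLC2A1 stands alone at -0.44 in the glycolysis set and EGLN3 at 0.70 in the hypoxia set, and 12 of 23 glycolysis models and 13 of 14 hypoxia models lie within 0.15 of 0.

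Glucose uptake is where the members diverged most. SLC2A1, which encodes GLUT1, the widespread basal glucose transporter, had the lowest log2 value of the list. It was read from ENSSSCG00000026635, the 1 model whose deposited protein name is facilitated glucose transporter member 1-like. SLC2A1 stood at 154, 132 and 166 CPM in GW0742 libraries and at 218, 197 and 199 CPM in DMSO libraries. Every GW0742 library lay below every DMSO library, for a difference of 26.5% (log2 -0.44 ± 0.09 SE, adjusted p = 0.0776 in edgeR and 0.000498 in DESeq2). Without any 1 library the log2 value ran from -0.52 to -0.36, and the adjusted p from 0.0621 to 0.299.

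SLC2A3, which encodes the high-affinity transporter GLUT3, went the other way on a level many times lower. SLC2A3 (ENSSSCG00000022925) stood at 35.7, 31.9 and 29.9 CPM in GW0742 libraries and at 22.0, 26.5 and 25.4 CPM in DMSO libraries. These groups also did not overlap (log2 0.40 ± 0.10, edgeR adjusted p = 0.126, DESeq2 0.0674). Per length, SLC2A1 exceeded SLC2A3 by 8.84, 8.53 and 11.4 times in GW0742 libraries and by 20.3, 15.3 and 16.1 times in DMSO libraries. The summed level of both transporters was 79.9 ± 6.8 RPKM with GW0742 and 102 ± 6.1 RPKM with DMSO (SD, n = 3 each). The ratio and the sum were chosen after the values were seen, and have no test.

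The hexokinases trap glucose inside the cell. HK1, the housekeeping form, was the main one, and per length it made up between 81.2% and 84.5% of HK1 and HK2 in GW0742 libraries and between 84.8% and 86.1% in DMSO libraries. HK1 stood at 343, 334 and 334 CPM in GW0742 libraries and at 302, 325 and 320 CPM in DMSO libraries. The groups were apart, yet by little (log2 0.09 ± 0.06, edgeR adjusted p = 0.431). HK2, the form induced by insulin and by HIF, stood at 80.6, 62.2 and 70.2 CPM in GW0742 libraries and at 49.7, 58.6 and 58.5 CPM in DMSO libraries. HK2 was thus higher in each GW0742 library, with the smallest gap between GW0742 replicate 2 and DMSO replicate 2 (log2 0.35 ± 0.11, edgeR adjusted p = 0.165, DESeq2 0.0722). GPI, the isomerase of the next step, overlapped, at 339 to 378 CPM with GW0742 and 353 to 370 CPM with DMSO.

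Of the 3 phosphofructokinase genes, the liver type differed between groups and the other two did not part them. PFKL (ENSSSCG00000028197) stood at 181, 166 and 174 CPM in GW0742 libraries and at 124, 140 and 152 CPM in DMSO libraries. Its lowest GW0742 value lay above its highest DMSO value (log2 0.33 ± 0.08, edgeR adjusted p = 0.116), and DESeq2 called it higher (adjusted p = 0.0135). The muscle type PFKM averaged 33.0 ± 2.1 CPM with GW0742 and 33.5 ± 1.1 CPM with DMSO (log2 -0.02 ± 0.08). The platelet type PFKP averaged 74.8 ± 2.8 CPM with GW0742 and 76.2 ± 7.1 CPM with DMSO (log2 -0.03 ± 0.08). Per length, PFKL made up 54.5%, 51.8% and 54.9% of the phosphofructokinase RNA in GW0742 libraries and 46.4%, 47.5% and 47.8% in DMSO libraries. PFKL was the most abundant of the 3 genes in all 6 libraries, by CPM and by deposited RPKM. The PFKP model has a listed length of 837, and its deposited RPKM is well below its counts over that length. The shares and the order per length thus depend on the measure.

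PFKFB3 and PFKFB4 make fructose 2,6-bisphosphate, the strongest activator of phosphofructokinase, and both were scarce. PFKFB3 ranged from 8.43 to 10.7 CPM with GW0742 and from 6.83 to 10.4 CPM with DMSO (log2 0.21 ± 0.19), and PFKFB4 from 3.18 to 5.21 CPM and from 3.68 to 5.34 CPM (log2 -0.21 ± 0.24). Their groups overlapped and their SEs were among the widest of the set. ALDOC, an aldolase best known from brain, was level at 112 ± 7.8 CPM with GW0742 and 114 ± 7.4 CPM with DMSO.

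**Figure D2:**
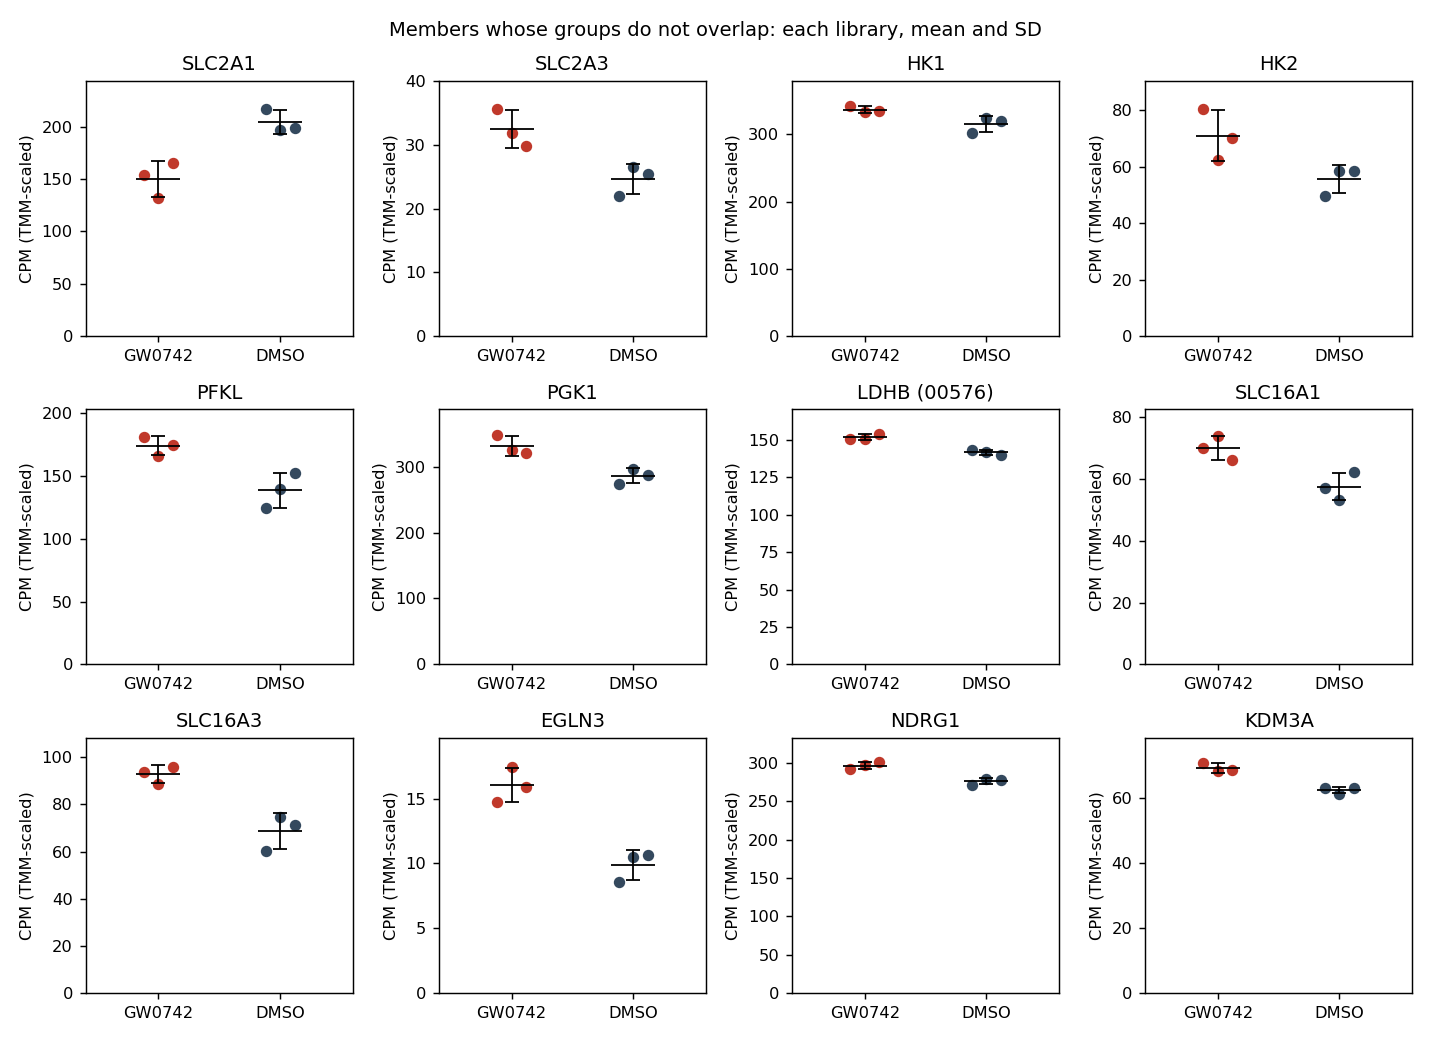
TMM-scaled CPM of the 12 tested models whose groups do not overlap, 9 of the glycolysis set and 3 of the hypoxia set. Each point is 1 library, and the lines are the mean and SD of 3 libraries. GW0742 is below DMSO for SLC2A1 and above it for the other 11 models.

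The most abundant members were enzymes of lower glycolysis and LDHA. Per length in DMSO libraries GAPDH led with 3315 RPKM on average, followed by PKM (1312), ENO1 (1005), PGAM1 (811), LDHA (576), TPI1 (338) and PGK1 (217). This order depends on the length of each model, listed as 534 for GAPDH and 2322 for PKM. By CPM in DMSO libraries PKM was ahead of GAPDH, at 3318 against 1878 on average. ENO2, the neuronal enolase, was lowest, with 0.69 RPKM with GW0742 and 0.63 RPKM with DMSO on average. The whole set summed to between 8506 and 8864 RPKM in GW0742 libraries and between 7925 and 8784 RPKM in DMSO libraries. These sums overlapped between the groups.

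**Figure D3:**
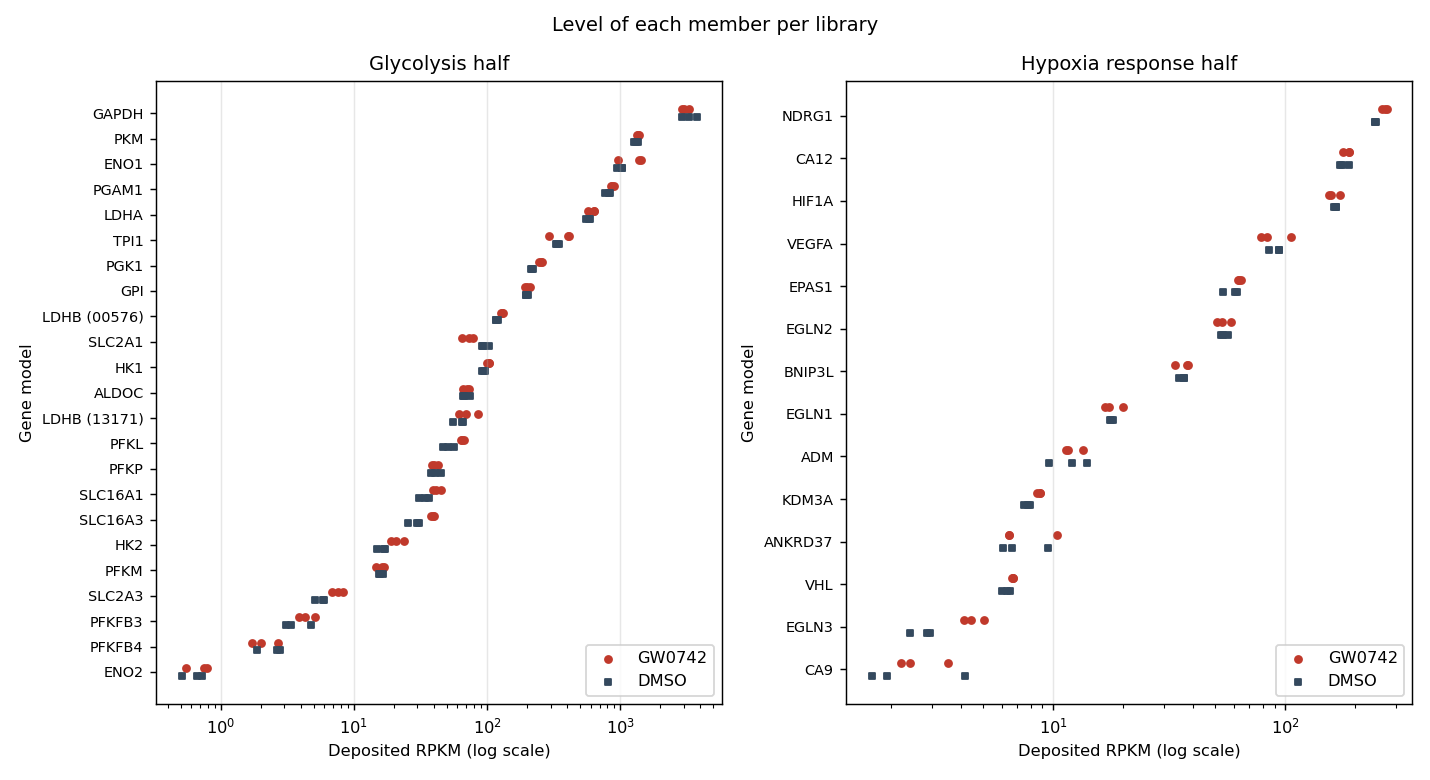
Deposited RPKM of each member in each library, on a log scale, with models ordered by their mean in DMSO libraries. Circles are GW0742 and squares DMSO libraries. GAPDH, PKM and ENO1 lead the glycolysis set and NDRG1 and CA12 the hypoxia set, while the group differences are small beside the differences between genes.

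PGK1, the kinase that makes the first ATP of the pathway, was the 1 enzyme of this stretch whose groups were apart. PGK1 stood at 348, 326 and 320 CPM in GW0742 libraries and at 274, 296 and 288 CPM in DMSO libraries. The difference was 15.8% (log2 0.21 ± 0.06, edgeR adjusted p = 0.151, DESeq2 0.0517). PGAM1, the mutase after it, averaged 715 ± 28 CPM with GW0742 and 674 ± 28 CPM with DMSO and overlapped (log2 0.09 ± 0.06). PKM, the last enzyme, averaged 3385 ± 28 CPM with GW0742 and 3318 ± 112 CPM with DMSO (log2 0.03 ± 0.05, edgeR adjusted p = 0.831). GAPDH went slightly the other way, at 1711 ± 87 CPM with GW0742 and 1878 ± 214 CPM with DMSO (log2 -0.13 ± 0.09). GAPDH has near-identical copies, and another model, ENSSSCG00000030911, whose deposited name is that of the same enzyme without the ending -like that ENSSSCG00000000694 (GAPDH) carries, held between 58.6 and 59.9 CPM with GW0742 and between 59.1 and 64.7 CPM with DMSO, so the split of reads between them is uncertain.

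TPI1 and ENO1 were uneven within the GW0742 group. ENO1, the main enolase, stood at 2121, 1391 and 2060.4 CPM in GW0742 libraries and at 1389, 1553 and 1550.0 CPM in DMSO libraries. TPI1, which interconverts the triose phosphates, stood at 567, 384 and 555 CPM in GW0742 libraries and at 471, 469 and 449.8 CPM in DMSO libraries. In both genes GW0742 replicates 1 and 3 lay above all DMSO libraries, while GW0742 replicate 2 lay beside the lowest DMSO library in ENO1 and below all of them in TPI1.

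With all libraries the log2 values were 0.31 ± 0.14 for ENO1 and 0.12 ± 0.13 for TPI1 (edgeR adjusted p = 0.327 and 0.704). Without GW0742 replicate 2 they were 0.48 ± 0.07 and 0.28 ± 0.06 (adjusted p = 0.0571 and 0.107). GW0742 replicate 2 was the lowest of the GW0742 libraries in 14 of 23 glycolysis models and 9 of 14 hypoxia models, against 35.3% of all tested models. That library also had the highest summed proliferation markers (59.3 RPKM, against 42.9 to 45.4 RPKM in the other two GW0742 libraries and 39.1 to 48.7 RPKM in DMSO libraries). The part of that difference in the values of ENO1 and TPI1 was not tested. Among DMSO libraries, replicate 1 was the lowest in 12 of 23 glycolysis models and 8 of 14 hypoxia models, against 30.6% of all tested models. Without DMSO replicate 1 the log2 values were 0.25 for PFKL, 0.28 for HK2, 0.32 for SLC2A3 and 0.13 for TPI1. With all libraries they were 0.33, 0.35, 0.40 and 0.12.

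**Figure D4:**
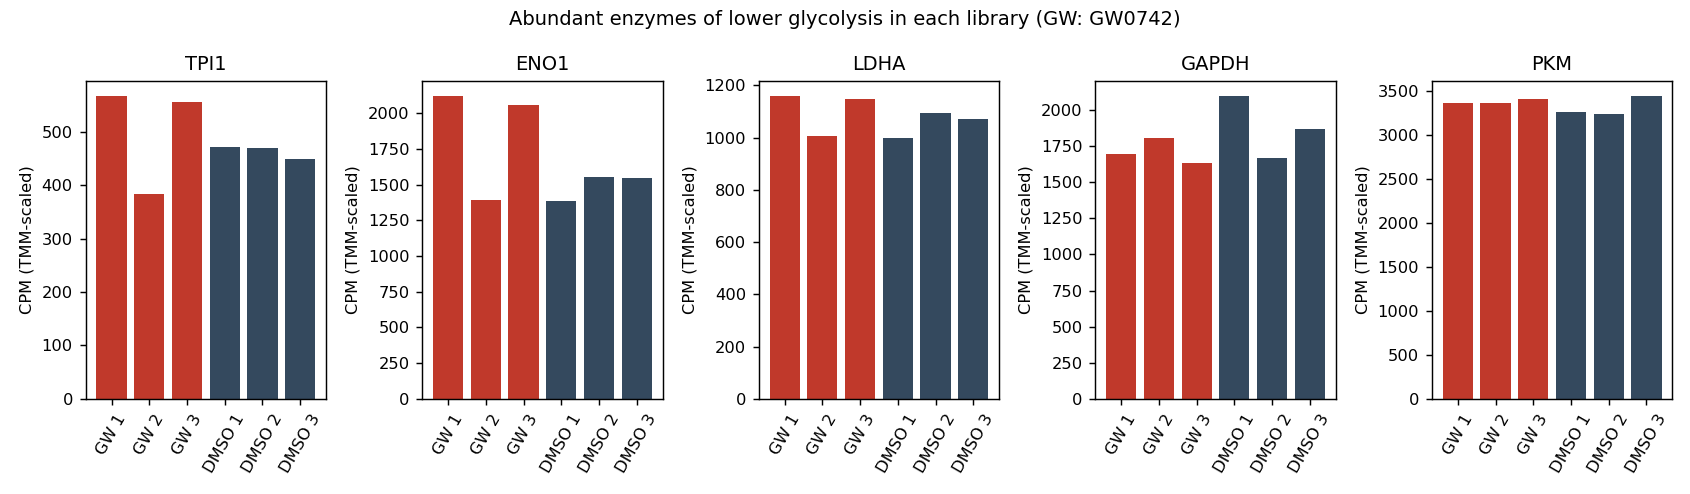
TMM-scaled CPM of TPI1, ENO1, LDHA, GAPDH and PKM in each of 3 GW0742 libraries (red) and 3 DMSO libraries (blue-grey), as bars from 0. GW0742 replicate 2 is the lowest GW0742 library for TPI1 (384 CPM), ENO1 (1391 CPM) and LDHA (1008 CPM), but the highest for GAPDH (1805 CPM).

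Both lactate transporters were higher in every GW0742 library, whereas the dehydrogenase that makes lactate differed little. SLC16A3, which encodes MCT4, the lactate exporter of glycolytic cells and a HIF target, had the highest log2 value of the glycolysis set. SLC16A3 (ENSSSCG00000024018) stood at 93.9, 88.5 and 95.9 CPM in GW0742 libraries and at 60.1, 74.7 and 71.4 CPM in DMSO libraries. The difference was 35.0% (log2 0.43 ± 0.09, edgeR adjusted p = 0.0794), and DESeq2 called it higher (adjusted p = 0.00191). Without any 1 library the log2 value ran from 0.34 to 0.50, and the adjusted p from 0.0953 to 0.275.

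SLC16A1, which encodes MCT1, a carrier of lactate, pyruvate and ketone bodies, stood at 70.1, 74.0 and 66.3 CPM in GW0742 libraries and at 57.2, 53.4 and 62.3 CPM in DMSO libraries. Its groups were apart by a narrower margin (log2 0.28 ± 0.08, edgeR adjusted p = 0.141, DESeq2 0.0859). Per length, both carriers together came to 81.3 ± 2.1 RPKM with GW0742 and 62.5 ± 3.5 RPKM with DMSO (SD, n = 3 each), a sum chosen after the values were seen. LDHA, the subunit that favours lactate, averaged 1104 ± 84 CPM with GW0742 and 1054 ± 51 CPM with DMSO (log2 0.07 ± 0.07, edgeR adjusted p = 0.681). LDHB, the subunit that favours pyruvate, is split over models of 1 protein. In ENSSSCG00000000576 it stood at 151, 150.3 and 154 CPM in GW0742 libraries and at 143, 142 and 140.0 CPM in DMSO libraries, apart but by 6.97% (log2 0.10 ± 0.05, edgeR adjusted p = 0.388). In ENSSSCG00000013171 the groups overlapped (log2 0.20 ± 0.12), and how reads of the gene were divided between both models is uncertain. LDHA made up between 74.1% and 76.7% of LDHA and LDHB per length with GW0742 and between 74.7% and 77.4% with DMSO, and these shares overlapped.

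**Figure D5:**
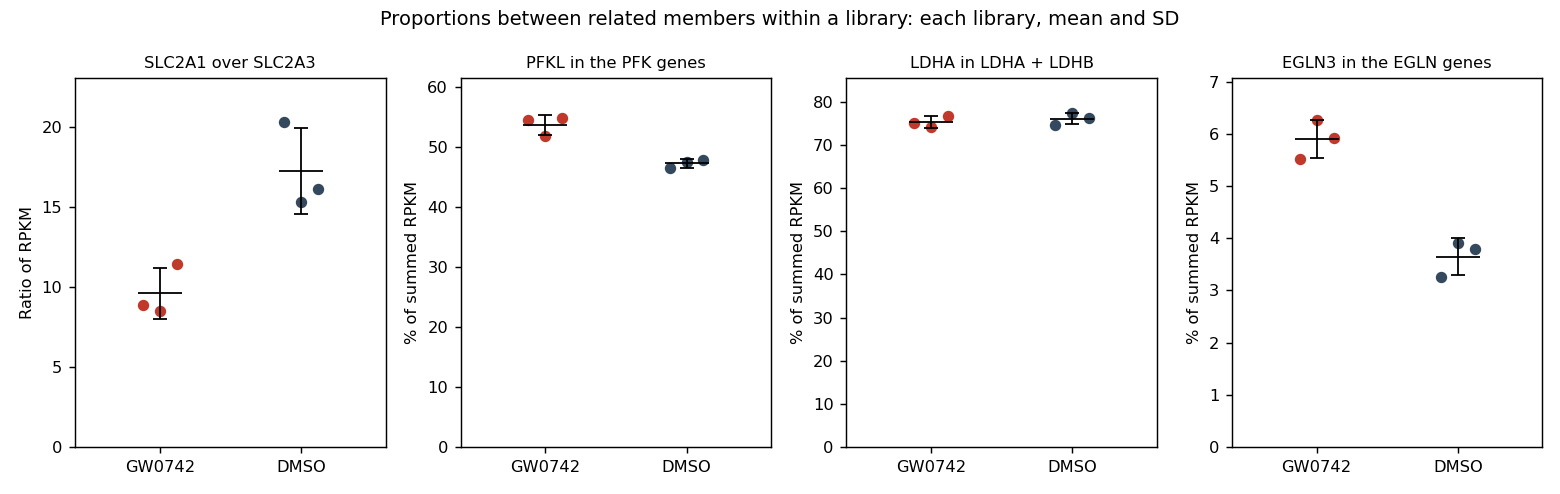
Proportions between related members within each library, from deposited RPKM: SLC2A1 over SLC2A3, PFKL as a share of the phosphofructokinase genes, LDHA as a share of LDHA and LDHB, and EGLN3 as a share of the EGLN genes. Points are libraries and lines the mean and SD (n = 3). The SLC2A1 ratio is lower with GW0742 (9.60 against 17.3 on average), the PFKL and EGLN3 shares are higher, and the LDHA share overlaps. These proportions have no test. The PFKL and EGLN3 shares restate the differences of these genes, since PFKM, PFKP, EGLN1 and EGLN2 were level.

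In the hypoxia set the HIF subunits and their regulators were level, except for EGLN3. HIF1A, the oxygen-labile alpha subunit, averaged 495 ± 37 CPM with GW0742 and 512 ± 12 CPM with DMSO (log2 -0.05 ± 0.07, edgeR adjusted p = 0.765). EPAS1, which encodes HIF-2 alpha, averaged 326 ± 9.1 CPM with GW0742 and 308 ± 28 CPM with DMSO (log2 0.08 ± 0.07). Per length HIF1A exceeded EPAS1 by 2.54 ± 0.13 times with GW0742 and 2.80 ± 0.20 times with DMSO, and these ratios overlapped. Both HIF proteins are set mainly by their stability, which RNA does not show.

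The EGLN enzymes hydroxylate HIF alpha when oxygen is present, and EGLN3, itself a HIF target, is the one most induced by low oxygen. EGLN3 (ENSSSCG00000001963) stood at 14.8, 17.5 and 15.9 CPM in GW0742 libraries and at 8.55, 10.5 and 10.6 CPM in DMSO libraries. All GW0742 libraries lay above all DMSO libraries, for a difference of 62.8%, the largest of all tested members of both sets (log2 0.70 ± 0.13, edgeR adjusted p = 0.0692). DESeq2 called it higher (adjusted p = 0.00518), and without any 1 library the log2 value ran from 0.60 to 0.76 and the edgeR adjusted p from 0.095 to 0.275. EGLN1, the main HIF hydroxylase, averaged 47.8 ± 5.1 CPM with GW0742 and 48.1 ± 1.2 CPM with DMSO (log2 -0.01 ± 0.09). EGLN2 averaged 87.3 ± 4.8 CPM with GW0742 and 89.5 ± 3.0 CPM with DMSO (log2 -0.04 ± 0.07). EGLN3 remained the scarcest of the 3, at 5.52%, 6.26% and 5.91% of their summed RPKM in GW0742 libraries and 3.25%, 3.91% and 3.78% in DMSO libraries. VHL, which marks hydroxylated HIF alpha for destruction, was level at 19.6 ± 0.29 CPM with GW0742 and 18.8 ± 0.90 CPM with DMSO (log2 0.06 ± 0.09).

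The 8 further hypoxia genes that were found are HIF targets, and 2 of them parted the groups by small amounts. NDRG1, a stress-induced gene, was the most abundant of the set per length (267 and 245 RPKM on average with GW0742 and DMSO), though not by CPM. It stood at 292, 297 and 301 CPM in GW0742 libraries and at 271, 280 and 278 CPM in DMSO libraries (log2 0.10 ± 0.05, edgeR adjusted p = 0.370). KDM3A, a histone demethylase induced by HIF, stood at 70.8, 68.2 and 68.5 CPM in GW0742 libraries and at 63.0, 61.2 and 62.9 CPM in DMSO libraries (log2 0.15 ± 0.06, edgeR adjusted p = 0.254, DESeq2 0.471). The gap was wide for KDM3A beside its small spread, though the difference was 10.9%.

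The classical targets overlapped between the groups. VEGFA, the main growth factor of blood vessels, ranged from 155 to 215 CPM with GW0742 and from 170.5 to 194 CPM with DMSO (log2 -0.05 ± 0.12). CA9, a surface carbonic anhydrase that is hardly made without HIF, stood at 3.91, 3.49 and 5.68 CPM in GW0742 libraries and at 3.09, 6.91 and 2.70 CPM in DMSO libraries. DMSO replicate 2 was the highest of the 6 for CA9, and without it the log2 value was 0.59, against 0.06 ± 0.37 with all libraries. CA12, its relative, was far more abundant and level, at 166 ± 5.3 CPM with GW0742 and 164 ± 9.6 CPM with DMSO (log2 0.02 ± 0.06). ADM, a peptide that widens vessels, averaged 19.6 ± 1.5 CPM with GW0742 and 19.5 ± 3.3 CPM with DMSO (log2 0.01 ± 0.13). BNIP3L, a receptor for the removal of mitochondria, averaged 134 ± 12 CPM with GW0742 and 135 ± 5.6 CPM with DMSO (log2 -0.01 ± 0.08). ANKRD37, a small HIF target, stood at 10.4, 6.23 and 6.47 CPM in GW0742 libraries and at 6.65, 9.69 and 6.18 CPM in DMSO libraries. The high libraries of ANKRD37 were thus 1 in each group (log2 0.04 ± 0.25). DMSO replicate 2 was the highest of the DMSO libraries in 9 of 14 hypoxia models, against 41.0% of all tested models. Summed per length, the hypoxia set came to 906, 908 and 939 RPKM in GW0742 libraries and 867, 901 and 887 RPKM in DMSO libraries. These sums were apart by little, and NDRG1 was the gene with the highest level in them.

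A further list of 46 glycolytic and linked sugar genes had 40 named and 35 tested models. None passed in edgeR, and at an unadjusted p under 0.05 there were 3 higher and 4 lower, against 7.93% and 8.91% of all tested models. DESeq2 called 0 higher and 1 lower (1.46% and 1.65% of all tested models), and the median log2 value was 0.00. Its lowest p belonged to PGLS, an enzyme of the pentose phosphate branch, at 70.4, 79.2 and 66.4 CPM in GW0742 libraries and 89.1, 90.3 and 87.6 CPM in DMSO libraries (log2 -0.30 ± 0.08, edgeR adjusted p = 0.12, DESeq2 0.037). The testis-type GAPDHS (log2 0.22 ± 0.08) and the ADP-dependent glucokinase ADPGK (log2 0.23 ± 0.08) came next, with edgeR adjusted p-values of 0.204 and 0.213.

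A further list of 48 genes of the HIF pathway had 37 named and 36 tested models, with 18 log2 values above 0 and 18 below. SLC2A5 and HILPDA were among the genes not named, so the counts of this list leave them out. In edgeR 1 was called higher and 0 lower, against 0.184% and 0.0778% of all tested models. DESeq2 called 3 higher and 1 lower, against 1.46% and 1.65% of all tested models. The 1 gene that rose in edgeR was ANGPTL4 (log2 3.14 ± 0.15, adjusted p = 0.000193), which HIF and PPARD are both known to induce.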

How the data were processed

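RNA-seq of 3 GW0742 and 3 DMSO libraries of pig ear cartilage cells was used. Polyadenylated RNA was taken with oligo(dT) beads and primed with random hexamers, per the labels' protocols, and no step named there marks the strand. The authors deposited estimated counts of reads and RPKM values per gene model, per the file headers, and the counts are mostly fractional. Deposited RPKM follows the counts only in part where a model has several transcripts. The build was Sscrofa10.2 per the submitters' processing notes, and for the aligner and counting program the entry is: not given in the sources used here. No coordinates are printed, since the reference tables belong to another build.

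Symbols came from a gene name table (11147 models). Members without one were matched by protein name, and names of 1157 further models came from RefSeq protein accessions. Over 4758 models with both, 93.7% had the same name. Models from the further lists are named on that basis.

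Estimated counts were rounded, filtered with filterByExpr (minimum count 10), TMM-scaled and tested with edgeR 4.0.16 in R 4.3.3 (quasi-likelihood F-test, GW0742 against DMSO, no block), with two-sided Benjamini-Hochberg adjusted p-values over 14146 models and a threshold of 0.05. The SE is the log2 fold change over the root of F. Groups that do not overlap were counted on CPM. A floor of 3 reads is 0.178 to 0.230 CPM, for counting error only, and tested members held between 16 and 57474 reads per library. Pairs of libraries within a group differed by more than sampling noise (chi-square over its degrees of freedom 4.34 to 16.0). Alternatives were DESeq2 1.42.0, median-of-ratios factors, no filter, each library left out, a replicate block, limma 3.58.1 on log2(RPKM + 1) and log2(RPKM + 0.1), summed models and other thresholds. The fit was tested on simulated data.

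All members are named; those with an unadjusted p under 0.05 or groups apart are given by library, and from each further list the genes past the threshold or else the 3 with the lowest p. The members are a list of named genes and no measured value enters the rule, but the members and lists were chosen with earlier results of these data known.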

Additional observations from a re-analysis of the deposited data

How the results depend on the processing

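The 12 member models whose groups were apart kept their direction in all 156 values from 13 alternatives. Groups that do not overlap all but fix that direction in advance, so this count is no further support. Of these values 5 were past the threshold: SLC2A1, PFKL, SLC16A3 and EGLN3 in DESeq2, and EGLN3 with summed models (adjusted p = 0.0497). In that last setting no other model was added to EGLN3, and only models of other genes were combined. Higher and lower glycolysis members were 0 and 0, but 2 and 1 in DESeq2, and 1 and 1 at an adjusted p under 0.1. Higher hypoxia members were 0, but 1 in DESeq2, 1 with summed models and 1 at an adjusted p under 0.1. Leaving out 1 library gave 0 in each. Over all genes 26 were higher and 11 lower. DESeq2 gave 207 and 234, no filter 13 and 3, summed models 57 and 26, log2(RPKM + 0.1) 17 and 4, log2(RPKM + 1) 3 lower, a threshold of 0.01 6 and 0, one of 0.1 138 and 105, and left-out libraries 6 to 54 and 0 to 47; the cause was not tested. The replicate block gave 10 and 0, and no member. Same-numbered libraries had deviations that correlated at 0.0054, -0.03 and -0.10, and not every library correlated best with its own. With 3 libraries per group, such correlations cannot decide whether same-numbered libraries belong together. Of 25 overlapping models, 14 changed sign in 40 of 325 values, none past the threshold. In limma, GPI was at 0.0098 with either pseudocount (0.0097938 and 0.0098353), PFKM at 0.00042 and 0.00033, ALDOC at 0.0013 and 0.0013, EGLN1 at 0.013 and 0.013, and BNIP3L at 0.014 and 0.014. Over left-out libraries log2 values ran from -0.054 to 0.026 for GPI, -0.054 to 0.028 for PFKM, -0.10 to 0.024 for PFKP, -0.065 to 0.034 for ALDOC, -0.030 to 0.23 for ENO2, -0.11 to 0.0015 for HIF1A, -0.095 to 0.059 for EGLN1, -0.079 to 0.00087 for EGLN2, -0.051 to 0.066 for BNIP3L, -0.18 to 0.59 for CA9, -0.0058 to 0.067 for CA12, -0.11 to 0.13 for ADM, -0.23 to 0.26 for ANKRD37 and -0.20 to 0.051 for VEGFA. ENO2 (16 to 27 reads) held the fewest reads of the tested glycolysis models, and CA9 (45 to 92) of the hypoxia models. The part of depth in their ranges was not tested.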

Other observations

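Among models outside the member list, 19 have a deposited protein name that holds "hypoxia" or "glucose transporter", and 12 were tested. Some of them belong to the further lists. This search was made after values were seen. None passed in edgeR, 2 were higher at an unadjusted p under 0.05 (7.93% of all tested models), and DESeq2 called the same 2 higher (1.46% of all tested models). ENSSSCG00000016584, named hypoxia-inducible protein, stood at 14.5, 15.6 and 14.2 CPM in GW0742 libraries and at 9.97, 9.61 and 9.48 CPM in DMSO libraries (log2 0.61 ± 0.11, edgeR adjusted p = 0.0651, DESeq2 0.0144). ENSSSCG00000027787, named facilitated glucose transporter member 5-like, stood at 11.6, 12.1 and 15.1 CPM in GW0742 libraries and at 6.53, 8.49 and 7.32 CPM in DMSO libraries (log2 0.80 ± 0.16, edgeR adjusted p = 0.0764, DESeq2 0.0066). By its name this model may be SLC2A5, a gene of the further HIF list that was not matched by symbol. Whether ENSSSCG00000016584 is HILPDA, also unmatched on that list, was not checked. Neither model is in the counts of that list. ENSSSCG00000016584 and ENSSSCG00000027787 were each higher in 3 of 3 GW0742 libraries than in any DMSO library. Of the 12 tested models 25.0% had groups apart, near the 23.4% of all tested models. HYOU1, named hypoxia up-regulated protein 1, was apart in the other direction. It stood at 354, 366 and 358 CPM in GW0742 libraries and at 414, 375 and 377 CPM in DMSO libraries (log2 -0.11 ± 0.06, edgeR adjusted p = 0.388).

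In the further list of HIF pathway genes, DESeq2 also called CXCR4, ELOB and P4HA2, which are named here after their values were seen. CXCR4, a chemokine receptor, stood at 2.30, 3.74 and 0.915 CPM in GW0742 libraries and at 0.178, 0.0751 and 0.420 CPM in DMSO libraries, a level of few reads. ELOB, a subunit of the VHL ligase, averaged 234 ± 18 CPM with GW0742 and 189 ± 6.9 CPM with DMSO (edgeR adjusted p = 0.107). P4HA2, a collagen prolyl hydroxylase, averaged 758 ± 60 CPM with GW0742 and 899 ± 36 CPM with DMSO (edgeR adjusted p = 0.158).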
